A study of Mus musculus with 7 samples.

Results

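The RNA-seq data were examined for 9 chemokine receptors of CD8+ T cells, *Cxcr3*, *Cxcr4*, *Cxcr5*, *Cxcr6*, *Ccr2*, *Ccr4*, *Ccr8*, *Ccr9* and *Cx3cr1*, which were chosen by gene symbol among the 55367 genes of the count table. Messenger RNA was counted in CD8+ T cells sorted from spleens of Foxp3 YFP/cre mice, a reporter strain that marks regulatory T cells, after 48 h with small extracellular vesicles (sEVs). The cells of 3 libraries received LME-sEVs, isolated from spleens of Eμ-*TCL1* mice, in which a TCL1 transgene under a B-cell enhancer and promoter gives a leukemia that models chronic lymphocytic leukemia (CLL). The cells of the 4 control libraries received HCME-sEVs, isolated from spleens of healthy mice. All 7 cultures shared the recipient strain, the T-cell activation described in the methods (CD3 and CD28 antibodies with IL2) and, per the labels, 100 µg/ml of sEVs, whereas by the methods the dose followed the content of a spleen. For most experiments the methods give mice of both sexes 8 to 10 weeks old, and no source used here says whether the libraries of a group came from separate animals, so that the p-values measure the spread between these libraries only.

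Chemokine receptors sit in the cell membrane and couple to inhibitory G proteins. When a chemokine binds, the G protein subunits activate phosphoinositide 3-kinase and Rac, and the cell moves along the chemokine gradient, until receptor kinases and arrestins switch the receptor off. In CD8+ T cells, receptors such as CXCR3, CXCR6 and CCR2 guide effector cells to inflamed tissue, CCR7 and CXCR5 guide cells within lymphoid organs, and CXCR4 holds cells near stroma that makes CXCL12.

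Of the 9 receptors, *Cxcr4* rose 2.32-fold and *Cxcr5* 1.79-fold with LME-sEVs, whereas *Cxcr6* fell by 29.5% and *Ccr2* fell by 28.9%. The other 4 that could be tested, *Cxcr3*, *Ccr4*, *Ccr9* and *Cx3cr1*, did not pass the test, and *Ccr8* held at most 2 counts per library. A gene was tested when its mean was at least 5 counts per library, which left 12623 genes, and was called when its false discovery rate (FDR) was under 0.05 in edgeR's quasi-likelihood test. The 4 calls among 8 tested receptors stand beside 8.96% of all tested genes, with 3.75% higher and 5.21% lower. The receptors were chosen with earlier results of these data known, so this comparison is a description. *Cxcr4* was also beyond a log2 fold change of 1, which made it the 1 differentially expressed gene (DEG) of the list, beside 1.28% of all tested genes, 0.626% higher and 0.658% lower. The same 4 receptors had groups that did not overlap, beside 20.3% of all tested genes, 9.49% with LME-sEV higher and 10.8% with LME-sEV lower. The median log2 fold change of the 8 tested receptors was -0.14, beside 0.0095 over all tested genes.

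Each library held between 3689831 and 5030522 counts, and levels are given as TMM-normalized CPM, which are counts scaled to a common library size. A floor of 3 counts, under which no level is read, lay between 0.582 and 0.807 CPM. HCME-sEV library 1 stood furthest from the others of its group: the chi-square per degree of freedom of its counts against them lay between 4.12 and 6.02, whereas it lay between 2.12 and 3.63 for all other pairs of replicates. The marker genes of CD8+ T cells (*Cd3d*, *Cd3e*, *Cd3g*, *Cd8a*, *Cd8b1* and 3 T-cell receptor constant genes) summed to between 3604 and 3746 CPM with HCME-sEVs and between 3936 and 4394 CPM with LME-sEVs, and 2 of the 8, *Cd3e* and *Cd3g*, were called higher, beside 3.75% of all tested genes. *Cd4* and *Foxp3*, which mark the T cells that the sort should remove, together held at most 0.582 CPM in any library. In these bulk libraries fewer cells of a type and less RNA per cell cannot be told apart.

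**Figure D1:**
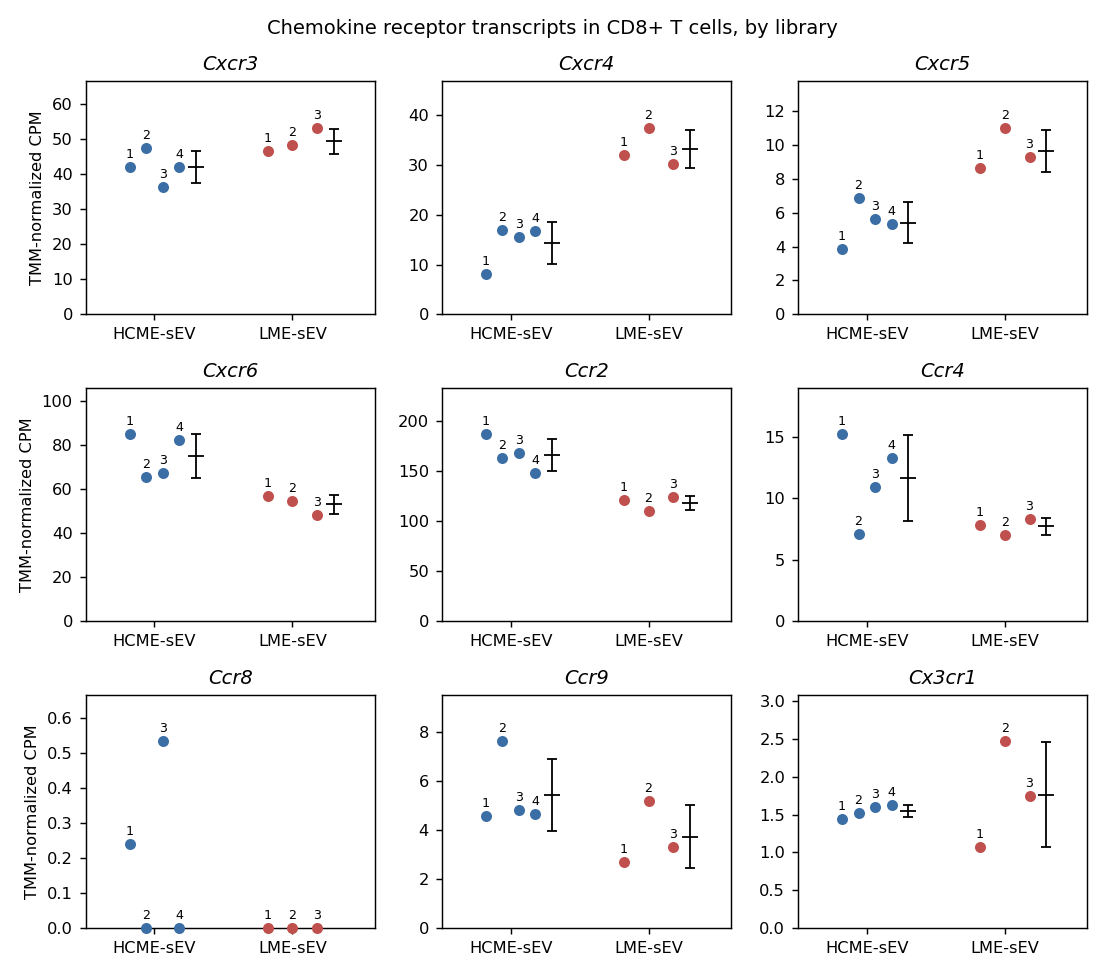
Level of each of the 9 receptors in every library, in TMM-normalized CPM on linear axes that start at 0 and differ between panels. Points are libraries, with their replicate number, and black bars give the mean ± SD of the 4 HCME-sEV and 3 LME-sEV libraries (none is drawn for *Ccr8*). The groups are fully apart for *Cxcr4* and *Cxcr5*, which are higher with LME-sEVs, and for *Cxcr6* and *Ccr2*, which are lower.

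The proximal promoters of *Cxcr4*, which rose, and of *Cxcr6* and *Ccr2*, which fell, are shown because they differ in base composition. The sequences are RefSeq's for GRCm38.p6, from 250 bases before to 50 after the gene's start in RefSeq. Gene positions elsewhere here are GENCODE's, whose starts can differ. The *Ccr2* window begins at 124101933, just before the GENCODE start at 124101950, so most of it lies inside that gene. Those of *Ccr4*, *Ccr9* and *Cx3cr1* lie wholly inside the GENCODE genes. Sequences were found for 8 of the 9 receptors, all but *Cxcr5*. Capitals mark matches, on either strand, of 6 searched motifs: a GC box (GGGCGG), an NRF1 motif, a TATA box (TATAAA), a STAT motif (TTCNNNGAA), a MYC E-box (CACGTG) and a FOXO motif (GTAAACA).
Cxcr4, chr1:128592250-128592549, minus strand: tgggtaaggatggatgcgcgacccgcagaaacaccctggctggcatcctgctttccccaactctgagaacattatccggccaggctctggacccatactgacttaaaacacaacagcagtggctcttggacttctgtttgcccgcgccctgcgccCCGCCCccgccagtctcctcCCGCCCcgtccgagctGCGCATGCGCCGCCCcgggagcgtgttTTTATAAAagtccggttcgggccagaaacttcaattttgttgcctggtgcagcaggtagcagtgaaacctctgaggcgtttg
Cxcr6, chr9:123806227-123806526, plus strand: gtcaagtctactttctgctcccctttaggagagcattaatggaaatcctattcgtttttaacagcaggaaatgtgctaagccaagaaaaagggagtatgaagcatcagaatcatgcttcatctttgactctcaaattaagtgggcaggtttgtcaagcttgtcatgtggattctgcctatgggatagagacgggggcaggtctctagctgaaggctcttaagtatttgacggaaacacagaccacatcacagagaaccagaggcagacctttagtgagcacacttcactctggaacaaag
Ccr2, chr9:124101933-124102232, plus strand: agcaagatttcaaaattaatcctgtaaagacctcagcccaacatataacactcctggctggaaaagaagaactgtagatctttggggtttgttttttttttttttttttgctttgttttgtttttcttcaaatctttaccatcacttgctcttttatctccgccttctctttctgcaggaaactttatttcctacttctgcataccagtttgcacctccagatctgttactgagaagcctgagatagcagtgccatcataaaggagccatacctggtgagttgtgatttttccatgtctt

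The *Cxcr4* promoter held 20 CpG sites and 59.3% G and C. The other 7 promoters held between 1 and 5 CpG sites, with 3 sites and 44.3% in that of *Cxcr6* and 1 site and 38.0% in that of *Ccr2*. The median over 32851 promoters was 7 CpG sites and 52.7%. In the *Cxcr4* promoter 3 GC boxes, 1 NRF1 motif and 2 overlapping TATA boxes were found, and the NRF1 motif shares bases with the GC box that follows it. Of all promoters 35.7% held the GC box, 0.971% the NRF1 motif, 13.6% the TATA box, 8.3% the STAT motif, 7.15% the E-box and 3.65% the FOXO motif. None of the 6 motifs was found in the other 7 promoters, which says only that these letters are not in those windows.

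*Cxcr4* (1:128588199-128592293 of GRCm38, minus strand), the receptor of CXCL12, which retains lymphocytes in bone marrow and other stromal niches, had the highest log2 fold change of the list. Its level was 8.19, 17.0, 15.5 and 16.8 CPM in HCME-sEV libraries 1 to 4, and 32.0, 37.5 and 30.2 CPM in LME-sEV libraries 1 to 3. All LME-sEV libraries were above all HCME-sEV libraries, and HCME-sEV library 1 was the lowest of the 7. The 4 HCME-sEV libraries averaged 14.4 ± 4.16 CPM and the 3 LME-sEV libraries 33.3 ± 3.80 CPM (mean ± SD). The log2 fold change was 1.21 (SE 0.18, 95% interval 0.85 to 1.58), with an FDR of 0.000301 in edgeR's quasi-likelihood test. It remained called without HCME-sEV library 1, with a log2 fold change of 1.01 and an FDR of 6.22e-05.

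*Cxcr5* (9:44511787-44561877, minus strand), the receptor of CXCL13, which leads cells to B-cell follicles and which a subset of CD8+ T cells carries, was counted at a low level. It had 16, 27, 21 and 23 counts in the 4 HCME-sEV libraries, in the order of their numbers, and 32, 49 and 48 counts in the 3 LME-sEV libraries. In CPM these were 3.85, 6.84, 5.60 and 5.35 with HCME-sEVs and 8.61, 11.0 and 9.31 with LME-sEVs, so that the groups did not overlap. The means were 5.41 ± 1.23 CPM over 4 and 9.64 ± 1.24 CPM over 3 libraries (± SD). The log2 fold change was 0.84 (SE 0.23, 95% interval 0.36 to 1.31), with an FDR of 0.0249 by edgeR. This call was lost with the test of DESeq2 (FDR 0.0583) and when HCME-sEV library 1 (0.0671) or 4 (0.0550) or LME-sEV library 2 (0.141) or 3 (0.0814) was left out, while the log2 fold change stayed between 0.70 and 0.97 over the 7 fits that left out a library. The last 110 bases of *Cxcr5* (9:44511787-44511896) overlap the end of *Bcl9l* on the opposite strand, and the sources used here do not say whether counting used the strand, so that its count is uncertain. *Bcl9l* itself had between 188 and 295 counts, and its log2 fold change was 0.05 (SE 0.11), with an FDR of 0.821 by edgeR.

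*Cxcr6* (9:123806475-123811760, plus strand), the receptor of CXCL16, which marks effector and tissue-resident CD8+ T cells, was lower in all LME-sEV libraries. Its level was 84.8, 65.4, 67.5 and 82.4 CPM in HCME-sEV libraries 1 to 4, and 56.8, 54.4 and 48.3 CPM in LME-sEV libraries 1 to 3. The HCME-sEV libraries fell into a higher pair (1 and 4) and a lower pair (2 and 3), both above the LME-sEV group. The HCME-sEV libraries averaged 75.0 ± 10 CPM (SD over 4 libraries) and the LME-sEV libraries 53.1 ± 4.38 CPM (SD over 3), a log2 fold change of -0.50 (SE 0.11, 95% interval -0.73 to -0.28) with an FDR of 0.00652 by edgeR. Without LME-sEV library 3, its lowest, the FDR was 0.0618 and the log2 fold change -0.44. The gene lies within *Fyco1*, on the other strand, and shares no exon with it.

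*Ccr2* (9:124101950-124113557, plus strand), the receptor of CCL2 and related monocyte chemoattractants, which effector and memory T cells also carry, had the highest level of the 9 receptors in both groups. It was at 187, 163, 168 and 148 CPM in HCME-sEV libraries 1 to 4, and at 121, 110 and 124 CPM in LME-sEV libraries 1 to 3. Each LME-sEV library was below each HCME-sEV library. The averages were 167 ± 15.9 CPM over the 4 HCME-sEV and 118 ± 7.46 CPM over the 3 LME-sEV libraries (± SD), with a log2 fold change of -0.49 (SE 0.089, 95% interval -0.68 to -0.31) and an FDR of 0.00174 by edgeR. Leaving out any single library kept it between -0.55 and -0.43, with an FDR of at most 0.0251. Without HCME-sEV library 1, its highest, the log2 fold change was -0.43 with an FDR of 0.00222. Monocytes also carry *Ccr2*, and the 8 myeloid marker genes summed to between 0.800 and 2.89 CPM with HCME-sEVs and between 3.60 and 5.65 CPM with LME-sEVs, with *Fcgr1* at 0 in all libraries. None of the 8 passed the count minimum, and their part in the *Ccr2* result was not tested. Among them *Itgam* had at most 1 count in an HCME-sEV library and 6, 8 and 6 counts in LME-sEV libraries 1 to 3. *Csf1r*, by contrast, had 4, 3, 0 and 4 counts with HCME-sEVs and 2, 3 and 4 with LME-sEVs, so that not all 8 were higher.

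*Cxcr3* (X:101731535-101734269, minus strand), the receptor of the interferon-induced chemokines CXCL9, CXCL10 and CXCL11 and a hallmark of effector CD8+ T cells, did not pass the test. It was at 42.2, 47.4, 36.3 and 42.1 CPM with HCME-sEVs and at 46.5, 48.3 and 53.3 CPM with LME-sEVs, and the groups overlapped. It had a log2 fold change of 0.24 (SE 0.11, 95% interval 0.012 to 0.46), with an FDR of 0.193 by edgeR, and it was not called in any of the 14 alternative fits. The interval reaches from near no difference to about the size of the changes in *Cxcr6* and *Ccr2*, with the opposite sign.

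*Ccr4* (9:114490316-114504916, minus strand), the receptor of CCL17 and CCL22, known from type 2 and skin-homing T cells, was at 15.2, 7.10, 10.9 and 13.3 CPM with HCME-sEVs and at 7.80, 6.97 and 8.34 CPM with LME-sEVs. HCME-sEV library 2 lay within the LME-sEV range, and the other 3 were above it. The log2 fold change was -0.59 (SE 0.23, 95% interval -1.07 to -0.12), with an FDR of 0.118 by edgeR. Leaving out HCME-sEV library 2 gave -0.77 with an FDR of 0.0352, and no other of the 14 alternatives called it. *Ccr9* (9:123678439-123784330, plus strand), the gut-homing receptor of CCL25, was at 4.58, 7.60, 4.80 and 4.66 CPM with HCME-sEVs and at 2.69, 5.17 and 3.30 CPM with LME-sEVs. The groups overlapped, and its log2 fold change was -0.52 (SE 0.31, 95% interval -1.17 to 0.12), with an FDR of 0.335 by edgeR.

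The remaining 2 receptors were near the limit of detection. *Cx3cr1* (9:119901616-120069879, minus strand), the fractalkine receptor of long-lived cytotoxic effector cells, had between 6 and 7 counts in the HCME-sEV libraries and 4, 11 and 9 counts in LME-sEV libraries 1 to 3. The log2 fold change was 0.21 (SE 0.44, 95% interval -0.71 to 1.12), with an FDR of 0.835 by edgeR, and without LME-sEV library 2 it was -0.091, so that no direction was detectable at this depth. *Ccr8* (9:120092114-120094906, plus strand), the receptor of CCL1, had 1, 0, 2 and 0 counts with HCME-sEVs and 0 counts in each LME-sEV library. All 7 libraries lie under the limit of 3 counts that a count of 0 allows. A two-sided exact permutation test of its CPM over the 35 possible assignments gave p = 0.571. With most libraries tied at 0, that test could not give a small p and so decides nothing.

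**Figure D2:**
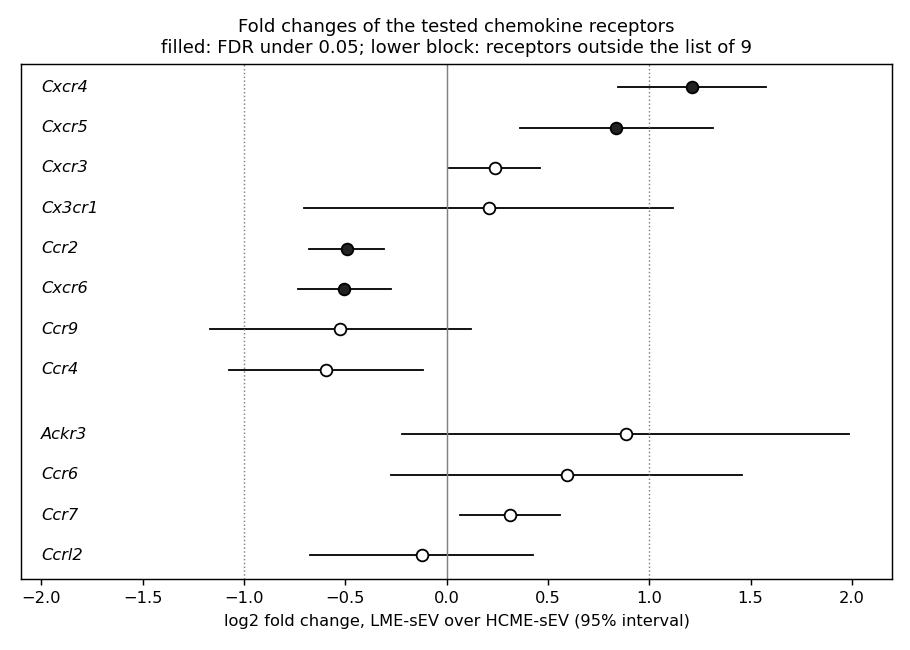
Log2 fold change, LME-sEV over HCME-sEV, of the 8 tested receptors and, in the lower block, of 4 other chemokine and atypical receptors that passed the count minimum. Dots are estimates from 3 against 4 libraries, bars their 95% intervals, and filled dots have an FDR under 0.05. *Cxcr4* is at 1.21 and *Cxcr5* at 0.84, *Cxcr6* and *Ccr2* are at -0.50 and -0.49, and no gene of the lower block is filled.

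The order of the receptors by level was not the same in both groups. Since molecules were counted at their 3′ ends, levels of different genes can be set side by side without their lengths, although capture can differ between genes. With HCME-sEVs the order by mean was *Ccr2*, *Cxcr6*, *Cxcr3*, *Cxcr4*, *Ccr4*, *Cxcr5*, *Ccr9*, *Cx3cr1* and *Ccr8*. There the ranges of *Cxcr4* and *Ccr4*, of *Cxcr5* and *Ccr9*, and of *Ccr4* and *Ccr9* overlapped. *Ccr4* and *Cxcr5* were close in HCME-sEV library 2, at 7.10 and 6.84 CPM. With LME-sEVs *Cxcr6* and *Cxcr3* overlapped in range, and *Cxcr4* and *Cxcr5* both stood above *Ccr4* in every library. The summed level of all 9 receptors was between 311 and 347 CPM in the HCME-sEV libraries and between 276 and 278 CPM in the LME-sEV libraries. This sum describes the 9 only and not all chemokine receptor RNA. It leaves out *Ccr7*, which averaged 195 CPM with HCME-sEVs and 242 CPM with LME-sEVs and was not called (FDR 0.109 by edgeR). *Ccr2* made up 51.7% ± 3.21 (SD, n = 4) of that sum with HCME-sEVs and 42.7% ± 2.51 (SD, n = 3) with LME-sEVs, and *Cxcr6* 23.3% ± 2.51 and 19.2% ± 1.65. *Cxcr4* made up 4.51% ± 1.45 with HCME-sEVs and 12.0% ± 1.43 with LME-sEVs. *Cxcr3*, which was not called, made up 13.1% ± 1.49 and 17.8% ± 1.20 of the 2 sums. The ratio of *Ccr2* to *Cxcr4* lay between 8.85 and 22.8 with HCME-sEVs, highest in library 1, and between 2.93 and 4.10 with LME-sEVs.

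**Figure D3:**
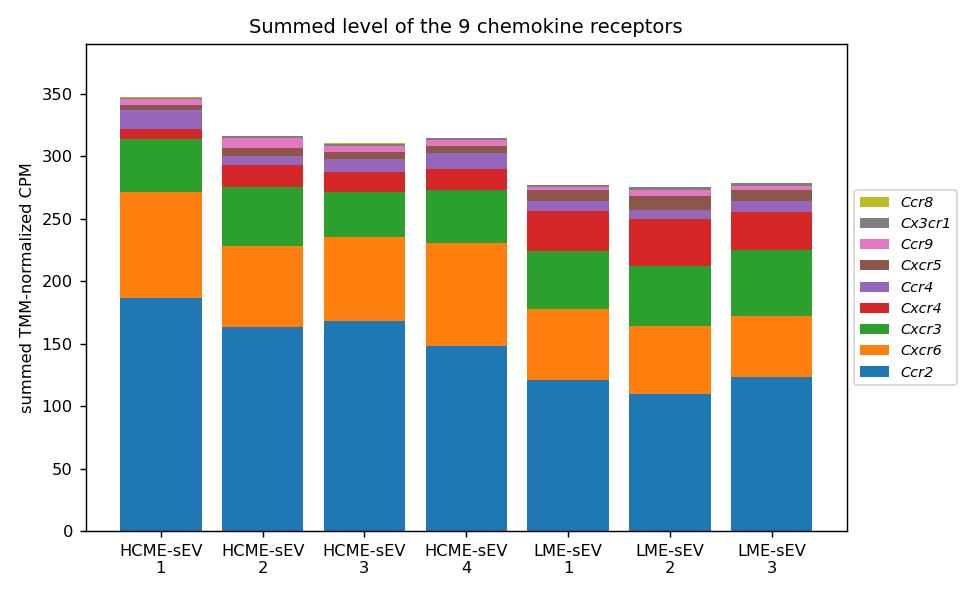
Summed level of the 9 receptors in each library, in TMM-normalized CPM, with 1 stacked bar per library from 0 and 1 colour per receptor. The HCME-sEV bars reach between 311 and 347 CPM and the LME-sEV bars between 276 and 278 CPM, with a smaller *Ccr2* part and a larger *Cxcr4* part. *Ccr7* is not among the 9 and is not part of the bars.

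Of the 9 receptor genes 7 lie on chromosome 9, including *Ccr2*, *Cxcr6* and *Ccr9*, which share a stretch with *Ccr1*, *Ccr3* and *Xcr1*. *Ccr1*, *Ccr3* and *Xcr1* held at most 7 counts in any library.

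Of 9 other chemokine receptors listed, 2 passed the count minimum and none was called. *Ccr7*, which leads naive and memory T cells into lymph nodes, was at 142, 210, 229 and 199 CPM with HCME-sEVs and at 229, 275 and 222 CPM with LME-sEVs, above *Ccr2* in every library but HCME-sEV library 1. The log2 fold change was 0.31 (SE 0.12), with an FDR of 0.109 by edgeR, and 3 of the 14 alternatives called it. *Ccr6*, the receptor of CCL20, was at 1.71 ± 0.63 (SD, n = 4) and 2.62 ± 0.72 CPM (SD, n = 3), with a log2 fold change of 0.59 and an FDR of 0.431 by edgeR. The other 7 held at most 7 counts in any library, among them *Cxcr2*, the neutrophil receptor, with at most 1 count in each HCME-sEV library and with 0, 4 and 6 counts in LME-sEV libraries 1 to 3. Of the 5 atypical receptors, most of which bind chemokines without G protein coupling, 2 were tested and none was called. *Ackr3*, a scavenger of CXCL12, was at 1.08 ± 0.67 (SD, n = 4) and 2.04 ± 0.83 CPM (SD, n = 3), with a log2 fold change of 0.88 and an FDR of 0.343 by edgeR. *Ccrl2* was at 6.75 ± 2.25 (SD, n = 4) and 6.17 ± 0.35 CPM (SD, n = 3), with an FDR of 0.840 by edgeR.

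The ligands of the 9 receptors were mostly counted too rarely to be tested: 4 of the 15 listed passed the count minimum, and *Ccl2*, *Ccl7*, *Ccl8* and *Ccl12*, ligands of CCR2, were at 0 in all libraries. Of the 4, 2 fell and none rose, beside 5.21% and 3.75% of all tested genes, with a median log2 fold change of -0.27. *Cxcl10*, an interferon-induced ligand of CXCR3, was at 10.4, 9.88, 14.9 and 11.9 CPM with HCME-sEVs and at 8.61, 4.72 and 4.85 CPM with LME-sEVs. It had a log2 fold change of -0.99 (SE 0.24), with an FDR of 0.0127 by edgeR. This call was lost without LME-sEV library 2 (FDR 0.0908) or 3 (FDR 0.0951). *Ccl1*, the ligand of CCR8, was at 17.8, 15.2, 16.3 and 23.3 CPM with HCME-sEVs and at 11.6, 11.9 and 11.2 CPM with LME-sEVs. Its log2 fold change was -0.65 (SE 0.17), with an FDR of 0.0206 by edgeR. This call was lost when HCME-sEV library 4 (0.0750) or LME-sEV library 1 (0.0568), 2 (0.0766) or 3 (0.0951) was left out. *Ccl25*, the ligand of CCR9, was at 6.09 ± 0.88 (SD, n = 4) and 8.39 ± 0.32 CPM (SD, n = 3) in groups that did not overlap, but its FDR was 0.204 by edgeR.

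The signal from these receptors is carried by G proteins, phosphoinositide 3-kinase and Rac GTPases. Of 15 tested genes of G protein coupling, among them *Gnai2*, *Gnb1*, *Pik3cg*, *Dock2* and *Elmo1*, 1 rose and none fell, beside 3.75% and 5.21% of all tested genes, and their median log2 fold change was 0.082, beside 0.0095. The one that rose was *Rac2*, the blood-cell GTPase that drives actin assembly at the leading edge. It was at 399, 395, 384 and 408 CPM with HCME-sEVs and at 425, 507 and 480 CPM with LME-sEVs, with a log2 fold change of 0.25 (SE 0.076) and an FDR of 0.0454 by edgeR. This call was lost in 5 of the 14 alternatives, without HCME-sEV library 2, 3 or 4 or LME-sEV library 2 or 3, with an FDR of up to 0.248.

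Of 13 tested genes that switch receptors off, 1 rose and 1 fell, beside 3.75% and 5.21% of all tested genes, and their median log2 fold change was -0.053. *Grk2*, the kinase that marks active receptors for arrestin binding, was at 198, 197, 198 and 215 CPM with HCME-sEVs and at 250, 266 and 237 CPM with LME-sEVs. It had a log2 fold change of 0.31 (SE 0.076), with an FDR of 0.0128 by edgeR, and 0.0949 without LME-sEV library 2. *Rgs1*, which speeds up the shut-off of inhibitory G proteins and so dampens chemokine responses, was at 145, 155, 141 and 127 CPM with HCME-sEVs and at 100, 107 and 106 CPM with LME-sEVs. The log2 fold change was -0.44 (SE 0.086), with an FDR of 0.00307 by edgeR, and it was called in all 14 alternatives. The arrestins *Arrb1* and *Arrb2* had log2 fold changes of 0.0080 and -0.07 and were not called.

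For each receptor that passed the test, the 2 genes whose log2 CPM followed it most closely over the 7 libraries were looked up among 8251 genes with a mean of at least 10 CPM. These correlations are across 7 libraries that share the difference between the groups and are given as a description. They were *Tcf12* (Pearson r = 0.992) and *Il16* (0.987) for *Cxcr4*, and *Nrip1* (0.989) and *Bcl6* (0.987) for *Cxcr5*. For *Cxcr6* they were *Mief1* (0.988) and *Imp4* (0.988), and for *Ccr2* they were *Eif2b3* (0.997) and *Ttc27* (0.988). *Bcl6*, a transcriptional repressor of follicular T cells, was at 5.78, 11.9, 9.87 and 7.45 CPM with HCME-sEVs and at 18.3, 22.5 and 19.8 CPM with LME-sEVs. Its log2 fold change was 1.22 (SE 0.19), with an FDR of 0.000662 by edgeR. *Tcf12* was at 160 ± 17.8 (SD, n = 4) and 203 ± 7.68 CPM (SD, n = 3). Of the genes most like the receptors, *Il16*, *Mief1* and *Eif2b3* were not called themselves (FDR 0.0943, 0.125 and 0.0593 by edgeR).

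Some markers of other cells differed between the groups. B cells carry *Cxcr4* and *Cxcr5*, and the 7 B-cell marker genes used summed to between 226 and 268 CPM with HCME-sEVs and between 304 and 330 CPM with LME-sEVs. Nearly all of it was *Ighm*, at 241 ± 17.8 (SD, n = 4) and 314 ± 13.4 CPM (SD, n = 3), with an FDR of 0.00430 by edgeR. Without *Ighm* the other 6 summed to between 4.53 and 8.36 CPM and between 4.84 and 7.42 CPM, and *Cd79a* held at most 2 counts. The 9 markers of basophils, mast cells and eosinophils summed to 6.26, 35.7, 24.3 and 14.0 CPM in HCME-sEV libraries 1 to 4 and to 40.1, 48.1 and 30.2 CPM in LME-sEV libraries 1 to 3. Of the 6 that were tested 3 were called higher and none lower, beside 3.75% higher and 5.21% lower of all tested genes. The lowest sum of these markers was in HCME-sEV library 1. Within its group that library was the lowest for *Cxcr4*, *Cxcr5*, *Ccr9* and *Cx3cr1*, the highest for *Cxcr6*, *Ccr2* and *Ccr4*, and neither for *Cxcr3* and *Ccr8*. Dendritic-cell markers summed to between 6.94 and 8.91 CPM and between 8.34 and 11.2 CPM, and natural killer cell markers to at most 1.93 CPM. Most of the dendritic-cell sum was *Zbtb46*, which was not called (FDR 0.191 by edgeR). *Trdc*, the γδ T-cell receptor gene, was at between 14.0 and 17.9 CPM with HCME-sEVs and between 9.69 and 13.8 CPM with LME-sEVs. It was not called (FDR 0.284 by edgeR). The part of these cells in the receptor results was not tested.

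**Figure D4:**
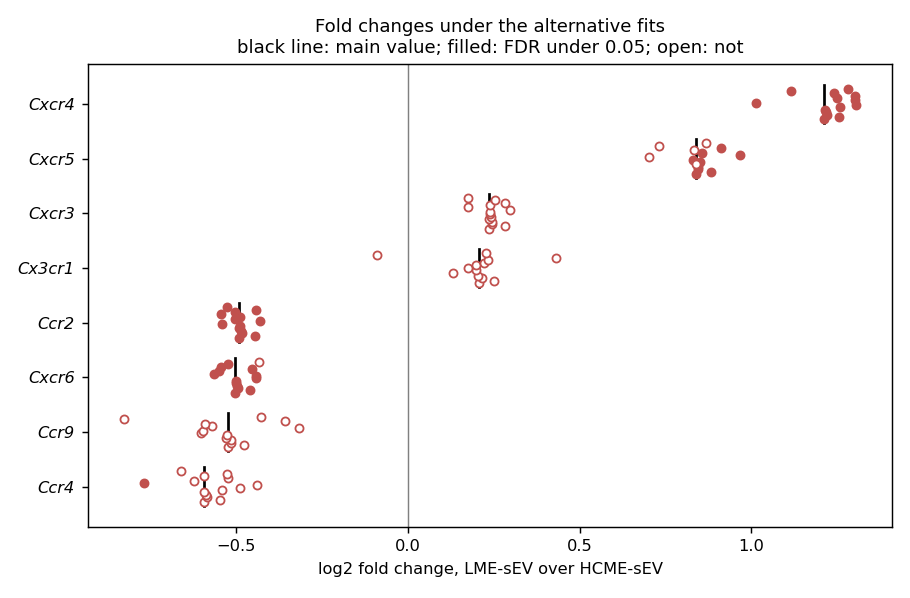
Log2 fold change, LME-sEV over HCME-sEV, of the tested receptors under the fit of the report and under 14 alternative fits that change the normalization, the filter, the test or the libraries. *Cx3cr1* has 13 of these, since 1 filter left it out, and the DESeq2 test gave it no FDR. *Cxcr4* stays between 1.01 and 1.31, *Cxcr5* between 0.70 and 0.97, *Cxcr6* between -0.57 and -0.44 and *Ccr2* between -0.55 and -0.43, while *Cx3cr1* falls on both sides of 0.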

How the data were processed

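Libraries of 7 cultures were prepared with the QuantSeq 3′ kit and unique molecular identifiers (UMIs). Per the labels and the study's methods, the authors trimmed reads with cutadapt 2.10, mapped them to GRCm38 with STAR 2.5.3a, collapsed UMIs with UMI-tools 1.0.0 and counted genes with featureCounts of Subread 2.0.0. The annotation release and strand setting are not given in the sources used here. The deposited values are unfiltered whole-number counts per gene, in which a count stands for 1 captured molecule. Groups came from the labels. A figure legend of the study gives the group sizes the other way round.

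Genes whose counts averaged 5 or more over the libraries were TMM-normalized and tested with edgeR 4.0.16 (glmQLFit, glmQLFTest; R 4.3.3), LME-sEVs against HCME-sEVs without covariate. The FDR is Benjamini and Hochberg's, taken over every tested gene. Standard errors were derived as the log2 fold change over the square root of F, and 95% intervals from t with the fit's degrees of freedom. CPM are TMM-normalized, and log2 CPM used a prior count of 2. Intervals and the floor of 3 counts do not cover differences between cultures beyond the libraries measured. The test was checked on simulated data.

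The receptors and lists were chosen with earlier results of these data known. Named were the 9 receptors, each other chemokine or atypical receptor that passed the count minimum, up to 6 genes with an FDR under 0.05 in each signalling or ligand list, and the 2 genes most like each called receptor. Genes named beyond this rule, such as *Ccl25*, *Cxcr2* and the arrestins, were chosen after their values were seen. A pair of listed genes is not reported here and was left out of the lists' counts and sums. Positions are from GENCODE vM21 on GRCm38. The last 300 bases of each receptor's transcripts were searched with blast 2.17.0, and no gene matched at 95% identity over 200 bases. Alternatives used DESeq2 1.42.0, limma 3.58.1 (voom), other normalizations and filters, a replicate block, and each library left out.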

Additional observations from a re-analysis of the deposited data

Results flagged for a closer look

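In 2 of the 17 genes checked, 1 HCME-sEV library stood apart from the other 3, with a gap to its nearest neighbour that took more of the group's range than Dixon's 95% critical value for 4 libraries. Chance gives about 0.85 such cases in 17. *Ccr9* had 7.60 CPM in HCME-sEV library 2 against between 4.58 and 4.80 CPM in the other 3, a gap of 0.926 of the range. *Grk2* had 215 CPM in HCME-sEV library 4 against between 197 and 198 CPM in the other 3, a gap of 0.970 of the range, and still below the lowest LME-sEV library at 237 CPM. *Cxcr4* in HCME-sEV library 1 was just inside the limit, at 0.828. The LME-sEV group, with 3 libraries, was not checked this way.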

How the results depend on the processing

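*Cxcr4*, *Ccr2* and *Rgs1* kept their direction and their call in all 14 alternatives. *Cxcr6* lost its call without LME-sEV library 3, and *Cxcr5* lost its call in 5 of the 14. Of the genes without a call, *Cx3cr1* changed sign without LME-sEV library 2 (log2 fold change -0.091) and *Ccrl2* without HCME-sEV library 3 (0.064), against 0.21 and -0.12 with all libraries. When each library was left out, *Cx3cr1* lay between -0.091 and 0.43 and *Ccrl2* between -0.32 and 0.064. With filterByExpr *Cx3cr1* and *Ackr3* were not tested. The number of receptors with an FDR under 0.05 was 4, and 3 with the DESeq2 test. It lay between 2 and 5 when a library was left out, with 2 without LME-sEV library 3, and the number of DEG among them was 1 throughout. Over all tested genes there were 162 DEG, 97 with the DESeq2 test and between 83 and 184 when a library was left out, and the number with an FDR under 0.05 was 1131, and between 391 and 1305. The fewest were found without LME-sEV library 2, with 83 DEG and 391 genes. Without LME-sEV library 3 there were 90 DEG and 458 genes, and without HCME-sEV library 2 there were 723 genes with an FDR under 0.05. These fits have fewer samples.

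Both groups carry replicate numbers, but no source says what a number marks, so the libraries were not treated as pairs. The deviations of libraries with the same number correlated at 0.0721, 0.155 and 0.0268, and those with different numbers at between -0.206 and 0.0803. LME-sEV library 2 correlated best with HCME-sEV library 2. LME-sEV library 1 correlated best with HCME-sEV library 3 (0.0803), and LME-sEV library 3 with HCME-sEV library 2 (0.0670). These values do not settle whether the numbers mark pairs. With the replicate number as a block there were 179 DEG and 1454 genes with an FDR under 0.05, and 4 receptors were called, while *Ccl1* lost its call (FDR 0.0624) and *Ccr7* gained one (FDR 0.0145). Normalization by library size only moved the median log2 fold change of all tested genes from 0.0095 to 0.055. At 3 counts per library as the floor, *Ccr8* could not be compared. *Cx3cr1*, *Ccr9*, *Ccr6*, *Ackr3* and *Ccrl2*, all at low counts, had intervals that include 0.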
